A study of Danio rerio with 7 samples.

Results

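Transcription factor genes of the red cell lineage were followed in gata1-positive cells of zebrafish embryos, namely gata1a, TAL1, LMO2, ZFPM1, NFE2, klf17, KLF3, BCL11A, GFI1B and gfi1aa. They were chosen by symbol, and all 10 were found among the 32105 genes of the table, each with 1 gene ID. Of these, 3 carried the zebrafish symbol as listed, 6 carried the same symbol in capitals, and bcl11aa was found as BCL11A without its paralog letter. All 10 passed the filter on low counts.

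Polyadenylated RNA came from embryos at 40 hours post fertilization, with 4 libraries from siblings (replicates 1, 3, 4 and 5) and 3 from ddx41 mutants (replicates 2, 3 and 4). The gene ddx41 encodes a DEAD-box RNA helicase. The labels give neither the mutant allele nor the genotype of the siblings, and the deposited table bears the name of a gata1 dsRed reporter, whose promoter fragment is not given. The labels do not say whether libraries came from separate clutches, so the spread behind each p-value is that of these libraries and may be technical.

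As background, GATA1 is the zinc finger protein that directs red cell differentiation. It binds DNA together with TAL1, a basic helix-loop-helix protein, and LMO2, an adaptor that bridges them, while FOG1 (the product of ZFPM1) binds GATA1 directly. NFE2 acts at globin genes as a dimer with small MAF proteins, KLF proteins bind CACCC sequences in red cell promoters, and GFI1B and BCL11A recruit repressive complexes.

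Library totals ran from 11814324 to 14363255 counts. The labels were not checked against the ddx41 transcript, which was not analysed here. Of the 11 tested rows of erythroid markers, 1 rose (SLC4A1, ENSDARG00000024560) and 2 fell (hbae1.3 and hbae3). For these and the marker counts that follow, 8.87% of all tested genes rose and 7.69% fell. Both SLC4A1 rows were taken for the listed slc4a1a, since the capital symbol does not tell paralogs apart. The SLC4A1 row that rose was the less abundant, and the far more abundant row (ENSDARG00000012881) did not pass the test. The erythroid sum was 83003 to 118430 CPM in siblings and 32830 to 63493 CPM in mutants, without overlap. CPM are counts scaled to library size with TMM factors. Globin rows led the sum, with hbae3 at 46136 and 22950 CPM on average and hbae1.3 at 21287 and 5563 CPM. The other rows of the erythroid list, alas2 and EPOR among them, did not pass the test. The listed hbbe1.1 and hbbe2 matched no row by symbol, and rows under other symbols were not sought. Globin rows outside this sum differed in direction. The row hbbe3 had 22409 and 25033 CPM on average and did not pass, and hbae5 rose from 129 to 212 CPM. The row HBE1 (ENSDARG00000045143) fell, at a log2 fold change of -1.835 (edgeR adjusted p = 0.000209). Both groups thus carried red cell transcripts. Endothelial markers summed to 31.2 to 52.1 CPM in siblings and 75.9 to 157.6 CPM in mutants, with 2 of 9 tested rows higher, among them stab2 at 7.33 and 63.7 CPM on average. Macrophage markers summed to 815 to 1592 CPM and 377 to 736 CPM, with 4 of 12 lower. MFAP4 (ENSDARG00000088745) was the most abundant over all 7 libraries, at 395 and 68.0 CPM on average. In mutants alone CORO1A, at 146 CPM, was above it. Skeletal muscle markers summed to 54.7 to 104.6 CPM and 46.8 to 51.2 CPM, with 3 of 9 lower. The most abundant over all 7 libraries was actc1b, at 24.6 and 7.95 CPM on average. In mutants alone TNNT3 (ENSDARG00000068457), at 14.9 CPM, was above it. Ranges overlapped for neutrophil markers (1838 to 3343 and 1924 to 3564 CPM, led by lyz), neural markers (119 to 213 and 81.2 to 268 CPM, led by ELAVL3) and epidermal markers (415 to 1254 and 849.8 to 1593 CPM, led by krt4). In these lists 1 of 5 tested neutrophil rows (mmp13a) and 2 of 9 epidermal rows (krt8 and epcam) rose. FABP7 (ENSDARG00000007697) and STMN1 (ENSDARG00000004169) fell, 2 of 11 tested neural rows. The part of these differences in the results below was not tested. In bulk RNA, fewer cells of a type and less RNA per cell cannot be told apart.

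The comparison asked which of these regulators differed in level between ddx41 mutant and sibling cells. The embryonic Krüppel-like factor klf17 and the repressor genes BCL11A and GFI1B fell, and KLF3 rose. The factors of the central GATA1 complex (gata1a, TAL1, LMO2 and ZFPM1), NFE2 and the sparse gfi1aa did not pass the test. In all, 4 of 10 genes passed edgeR's quasi-likelihood test after Benjamini-Hochberg adjustment over 18565 genes at 0.05, where 16.6% of all tested genes did. Of the 10, 3 fell (7.69% of all tested genes fell) and 1 rose (8.87% of all rose). The median log2 fold change of mutants over siblings was -0.52 over the 10 genes and 0.04 in the whole tested table. At 5 of the 10 genes all mutants lay on one side of all siblings, as they did at 27.5% of tested genes.

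**Figure D1:**
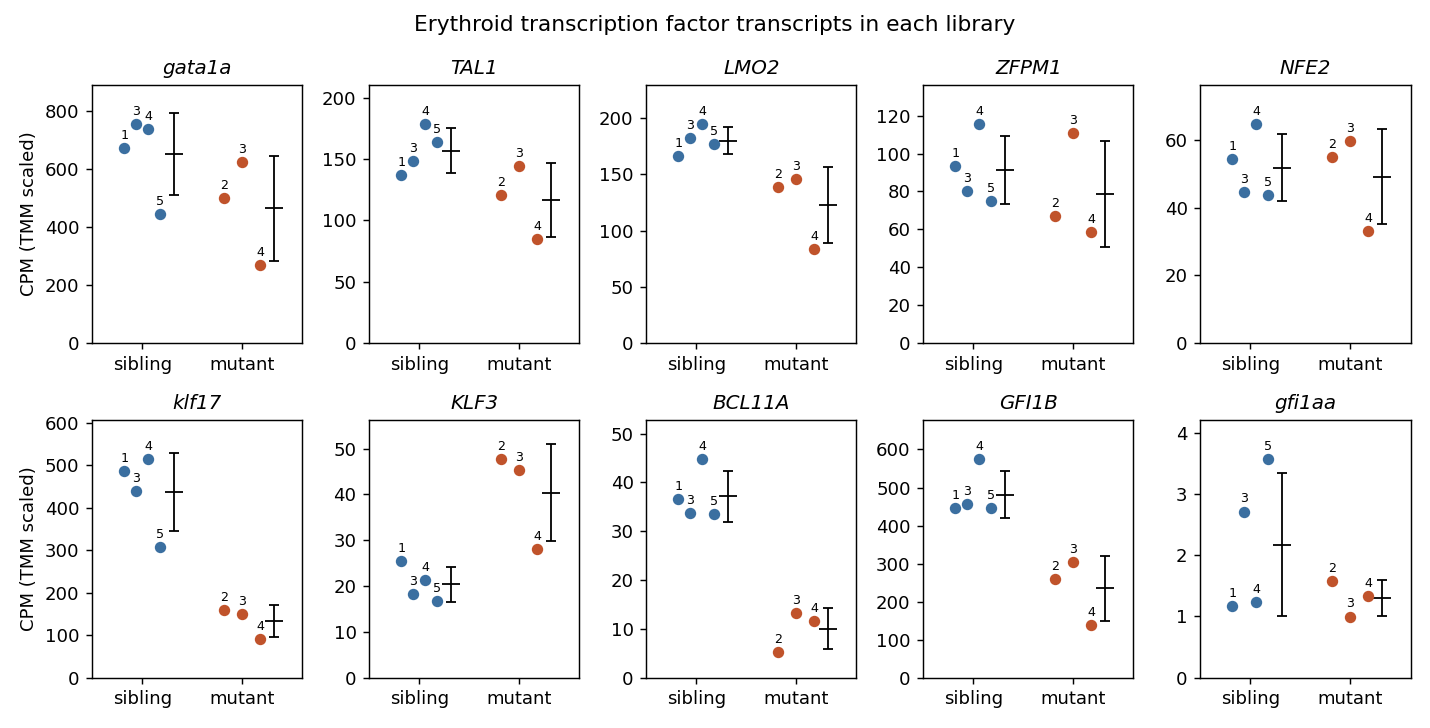
Level of each gene in every library, in CPM with TMM scaling on linear axes that start at 0. Each point is 1 library, labelled with its replicate number (blue, 4 siblings; orange, 3 ddx41 mutants), and black bars give the mean and SD. The mutants lie below every sibling for klf17, BCL11A, GFI1B and LMO2 and above every sibling for KLF3.

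The gene gata1a (ENSDARG00000013477) encodes zebrafish Gata1, and the labels call the cells gata1-positive. Its level was 672, 754, 738 and 446 CPM in sibling replicates 1, 3, 4 and 5, and 498, 624 and 269.6 CPM in ddx41 mutant replicates 2, 3 and 4. Mutant replicate 4 was the lowest library and sibling replicate 5 the next lowest, and the groups overlapped. The means were 652 ± 142 CPM in siblings (SD, n = 4) and 464 ± 179.9 CPM in mutants (SD, n = 3). The fitted log2 fold change was -0.49 ± 0.27 (SE), with a 95% interval of -1.07 to 0.08 and an edgeR adjusted p of 0.242. The interval reached from a small rise to a fall of 2.10-fold. Without mutant replicate 4 the log2 fold change was -0.22, and without mutant replicate 3 it was -0.80 (edgeR adjusted p = 0.554 and 0.0813).

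TAL1 (ENSDARG00000019930) encodes the helix-loop-helix partner of the complex. Siblings had 137, 148, 178 and 164 CPM and mutants 120.3, 144 and 84.5 CPM, in the same order of replicates. Mutant replicate 3 lay above sibling replicate 1, and the other mutants lay below all siblings. TAL1 had a log2 fold change of -0.43 ± 0.21 (SE; edgeR adjusted p = 0.177), and it was -0.25 without mutant replicate 4.

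LMO2 (ENSDARG00000095019), the adaptor gene, had 167, 182, 195 and 177 CPM in siblings and 139, 146 and 83.4 CPM in mutants. All 3 mutants lay below all 4 siblings, whose coefficient of variation was 6.47%, the smallest of the 10 genes in that group. For LMO2 the log2 fold change was -0.56 ± 0.21 (SE), with a 95% interval of -1.001 to -0.11 before adjustment, and the edgeR adjusted p was 0.0855. Without mutant replicate 3 the gene passed the test at a log2 fold change of -0.73 (edgeR adjusted p = 0.0499), and without mutant replicate 4 it was -0.34.

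Transcripts of LMO2 and TAL1 had similar ratios to each other in both groups. The ratio of their CPM, not corrected for transcript length, averaged 1.15 ± 0.0808 over the 4 siblings and 1.05 ± 0.0904 over the 3 mutants (SD), and the groups overlapped. Among the 45 pairs of the 10 genes, this pair had the most similar profile over the 7 libraries, with a root mean square difference of 0.115 on the log2 scale after centring each gene. The ratio was chosen after the values were seen. Neither the ratio nor the distance carries a test, and both describe these libraries only.

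ZFPM1 (ENSDARG00000041572), which encodes the GATA1 cofactor FOG1, had 93.7, 80.4, 115.5 and 75.02 CPM in siblings and 67.2, 110.8 and 58.4 CPM in mutants. The groups overlapped, with mutant replicate 3 second only to sibling replicate 4. The log2 fold change was -0.21 ± 0.24 (SE; edgeR adjusted p = 0.601), and it was -0.57 without mutant replicate 3 and -0.03 without mutant replicate 4.

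NFE2 (ENSDARG00000020606), the gene for the globin-binding leucine zipper factor, had 54.5, 44.7, 64.7 and 43.7 CPM in siblings and 54.9, 59.6 and 33.2 CPM in mutants. Mutant replicates 2 and 3 lay within the sibling range and mutant replicate 4 below it. The log2 fold change was -0.08 ± 0.23 (SE), with a 95% interval of -0.57 to 0.42 (edgeR adjusted p = 0.860). Its sign turned without sibling replicate 4 (0.03) or mutant replicate 4 (0.14).

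The gene klf17 (ENSDARG00000038792), also called biklf in zebrafish, encodes a Krüppel-like factor that is needed for primitive red cell formation in zebrafish embryos. It had 486, 440.1, 515 and 307 CPM in sibling replicates 1, 3, 4 and 5 and 159.9, 150.5 and 91.0 CPM in mutant replicates 2, 3 and 4. The highest mutant lay well below the lowest sibling, replicate 5. The means were 437 ± 91.9 and 134 ± 37.4 CPM (SD, n = 4 and 3), a 3.27-fold fall with a 95% interval of 2.27- to 4.71-fold (edgeR adjusted p = 0.000317). The log2 fold change lay between -1.86 and -1.49 when any 1 library was left out, and the gene passed the test each time.

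KLF3 (ENSDARG00000015495) encodes a relative that, in mice, represses genes which KLF1 activates. It had 25.4, 18.2, 21.2 and 16.6 CPM in siblings and 47.7, 45.3 and 28.2 CPM in mutants. All mutants lay above all siblings, and mutant replicate 4 came close to sibling replicate 1. The gene rose 1.98-fold, with a 95% interval of 1.395- to 2.81-fold (edgeR adjusted p = 0.0106). Without mutant replicate 2 the log2 fold change was 0.85 and no longer passed (edgeR adjusted p = 0.0655).

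These opposite changes of KLF3 and klf17 met in the ratio of their CPM within a library, which does not depend on scaling. It was 0.0523, 0.0414, 0.0413 and 0.0541 in sibling replicates 1, 3, 4 and 5, and 0.299, 0.301 and 0.310 in mutant replicates 2, 3 and 4. The mutants were nearly alike in this ratio, although mutant replicate 4 had the lowest level of both genes among the mutants. The ratio was 6.47 times as high in mutants as in siblings. It was chosen after the values were seen and carries no test.

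BCL11A (ENSDARG00000061352) encodes a zinc finger repressor known in humans and mice for silencing embryonic and fetal globin genes. It had 36.6, 33.6, 44.8 and 33.5 CPM in siblings and 5.25, 13.2 and 11.6 CPM in mutants. The highest mutant lay far below the lowest sibling, and mutant replicate 2, with 63 counts, was the lowest library. The gene fell 3.70-fold, with a 95% interval of 2.404- to 5.70-fold (edgeR adjusted p = 0.000532), and its log2 fold change of -1.89 was the lowest among the 10 genes. It passed the test without any 1 library, with log2 fold changes of -2.18 to -1.59.

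GFI1B (ENSDARG00000079947) encodes a transcriptional repressor that acts in red cell and thrombocyte development and recruits the histone demethylase KDM1A. It had 447, 458, 575 and 446 CPM in siblings and 259.7, 305 and 139.6 CPM in mutants. Sibling replicate 4 stood above the other siblings and mutant replicate 4 below the other mutants, and the groups did not overlap. The gene fell 2.05-fold, with a 95% interval of 1.42- to 2.95-fold (edgeR adjusted p = 0.0100). It passed without any 1 library, with log2 fold changes of -1.30 to -0.77.

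Its paralog gfi1aa (ENSDARG00000020746), which marks primitive red cells of earlier zebrafish embryos, was sparse, with 17, 35, 16 and 50 counts in siblings and 19, 13 and 21 counts in mutants. These counts overlapped, and sibling replicates 3 and 5 were the highest. Its log2 fold change was -0.73 ± 0.62 (SE), with a 95% interval of -2.06 to 0.60 (edgeR adjusted p = 0.472), which at this depth reached from a 4.18-fold fall to a rise.

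**Figure D2:**
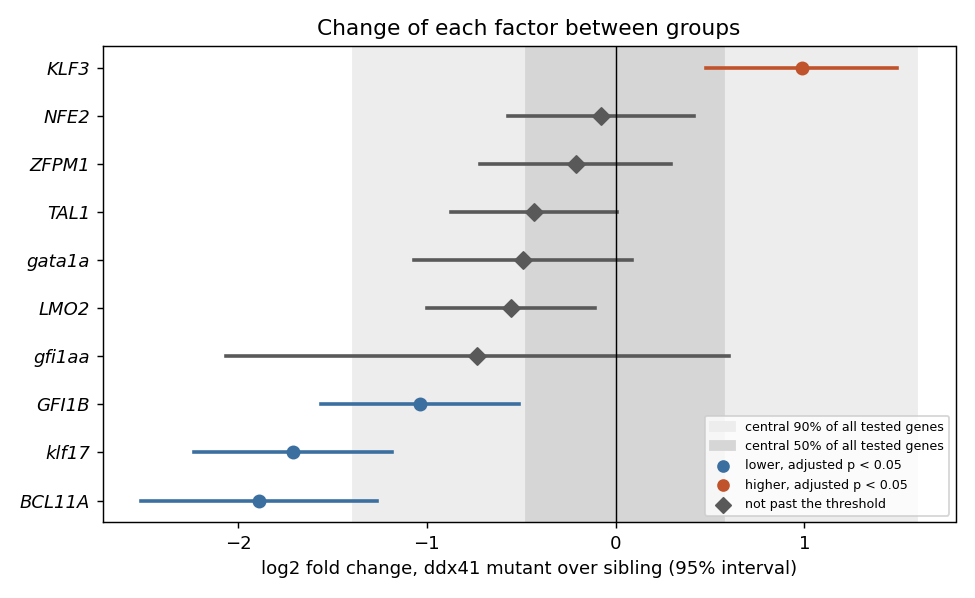
Log2 fold change of ddx41 mutants over siblings for each gene, with its 95% interval from edgeR's fit, in order of size. Grey bands hold the central 50% and 90% of all 18565 tested genes. BCL11A at -1.89 and klf17 at -1.71 lie below the outer band, which starts at -1.39, and KLF3 at 0.99 and GFI1B at -1.04 lie within it.

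In order of log2 fold change the genes were BCL11A, klf17, GFI1B, gfi1aa, LMO2, gata1a, TAL1, ZFPM1, NFE2 and KLF3. Each gene's 95% interval overlapped that of the next gene in this order, except that the interval of KLF3 (0.48 to 1.49) lay above that of NFE2. The coefficient of variation was larger in the 3 mutants than in the 4 siblings for 9 of the 10 genes, and gfi1aa was the exception. The genes were read in the same libraries and are not separate observations, and the share over all tested genes was not counted. Mutant replicate 4 was the lowest mutant for 8 genes, and sibling replicate 5 was the lowest sibling for 7. Mutant replicate 4 also had the lowest sum of erythroid markers, which globin rows led (32830 CPM), and sibling replicate 5 the lowest among siblings (83003 CPM). The part of this in the differences between groups was not tested. The same 4 genes passed the test without mutant replicate 4.

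**Figure D3:**
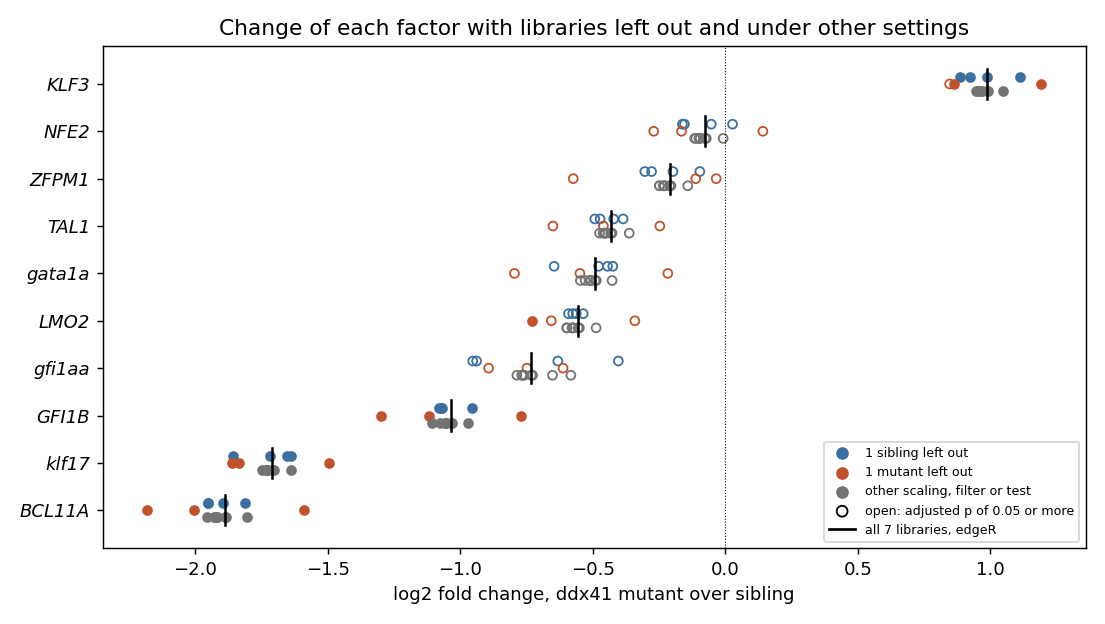
Log2 fold change of each gene with 1 sibling (blue) or 1 mutant (orange) left out and under other scalings, filters and tests (grey), beside the value from all 7 libraries (black line). Filled points passed an adjusted p of 0.05. BCL11A, klf17 and GFI1B stay filled throughout, KLF3 has 1 open point and LMO2 has 1 filled point.

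Because gata1a itself varied among libraries, each gene was also set against gata1a in the same library. This ratio carries no test, and it is not corrected for transcript length. The klf17 level was 72.4%, 58.4%, 69.8% and 69.0% of gata1a in sibling replicates 1, 3, 4 and 5, and 32.1%, 24.1% and 33.7% in mutants. The low klf17 of sibling replicate 5 thus came with a low gata1a, and its ratio was like that of the other siblings. GFI1B was at 66.5%, 60.7%, 77.9% and 100.1% in siblings and at 52.1%, 48.9% and 51.8% in mutants. The mutants differed little from each other in that ratio, although their GFI1B levels ranged from 139.6 to 305 CPM.

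KLF3 was at 2.41% to 3.78% of gata1a in siblings and 7.25% to 10.5% in mutants, 2.86 times as high. BCL11A was at 4.46% to 7.53% in siblings and 1.05% to 4.29% in mutants, where mutant replicate 4 came close to sibling replicate 3. TAL1 stood at 25.3% ± 7.97 of gata1a over the 4 siblings and 26.2% ± 4.50 over the 3 mutants (SD), and LMO2 at 28.8% ± 7.34 and 27.4% ± 3.84. ZFPM1 had 14.3% ± 2.68 and 17.6% ± 4.09, NFE2 had 8.15% ± 1.64 and 10.96% ± 1.38, and gfi1aa had 0.376% ± 0.297 and 0.324% ± 0.167. The ratios of the groups did not overlap for 4 of the 9 genes, 3 lower and 1 higher. Among all tested genes, 2.27% had a lower ratio in every mutant than in every sibling and 19.1% a higher one. The mean of gata1a was lower in mutants, and dividing by it moves ratios upward. By CPM, all mutants lay below all siblings at 12.8% of tested genes and above at 14.6%. For the 10 genes, these counts by CPM were 4 and 1.

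**Figure D4:**
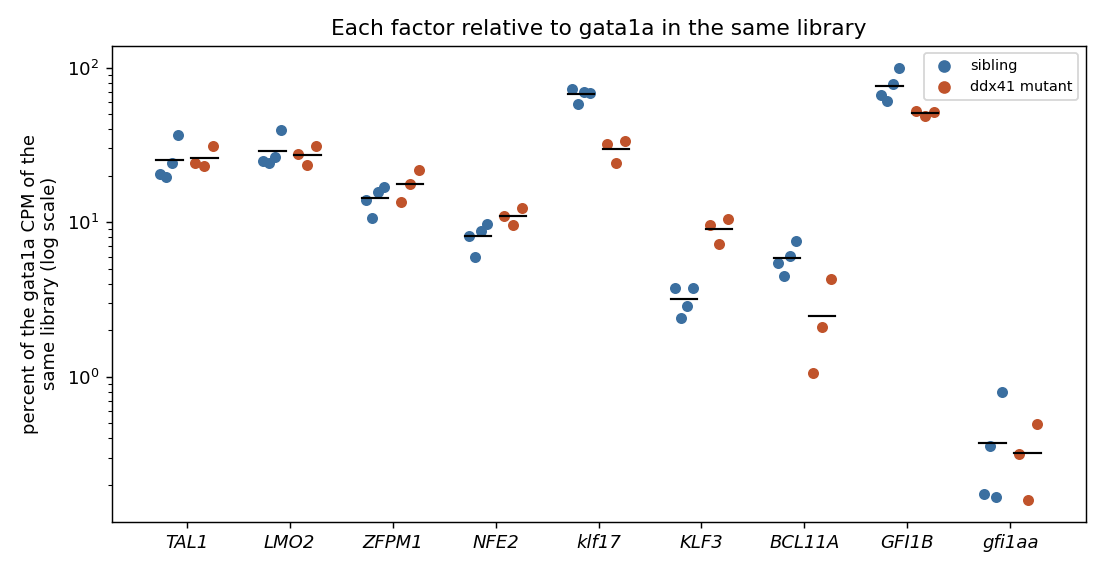
Level of each gene as a percentage of the gata1a CPM in the same library, on a log axis. Points are libraries (blue, siblings; orange, ddx41 mutants) and black lines are group means. The groups are separate for klf17, KLF3, BCL11A and GFI1B, and they overlap for TAL1, LMO2, ZFPM1, NFE2 and gfi1aa.

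The genes nearest in profile to klf17 over the 7 libraries were zc3h7ba, HBE1 (ENSDARG00000045143) and ABCC8 (ENSDARG00000077007). Their root mean square differences were 0.124, 0.156 and 0.185 on the centred log2 scale, among 10445 candidate genes. For KLF3 the nearest were DDX27, rpz5 and zgc:91910 (0.120, 0.126 and 0.127), and for gata1a they were PPP1R14B, BTBD6 and tuba8l4 (0.100, 0.111 and 0.124). A profile that holds a difference between groups will be near others that hold one of like size, so these distances describe the libraries only.

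Relatives of these factors were counted by family. Of 19 tested rows of the KLF family, klf17 and KLF3 included, 6 fell and 1 rose, against 7.69% and 8.87% of all tested genes. KLF11 (ENSDARG00000030844) fell 3.05-fold, from 69.4 ± 8.65 to 22.7 ± 4.33 CPM (SD, n = 4 and 3; edgeR adjusted p = 0.000124), with the mutants at 18.6, 22.4 and 27.2 CPM and no sibling under 61.1 CPM. The others that fell, named after their values were seen, were klf13, KLF6, KLF9 and another KLF11 row (ENSDARG00000013794). The groups overlapped for KLF6 and KLF9, and KLF9 was close to the threshold (edgeR adjusted p = 0.0498). Only 3 KLF rows fell when sibling replicate 1 or mutant replicate 2 was left out, and 4 fell without mutant replicate 4 or with library totals as the only scaling. None rose without mutant replicate 2. The gene klf1, whose mouse counterpart activates adult beta globin, had 503 ± 71.8 CPM in siblings and 395 ± 129.6 CPM in mutants (edgeR adjusted p = 0.328). The ratio of klf17 to klf1, chosen after its values were seen and not tested, was 0.881 ± 0.218 over siblings and 0.348 ± 0.0931 over mutants (SD, n = 4 and 3), without overlap.

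In the BCL11 family the second BCL11A-type gene, bcl11ab, fell 4.15-fold, from 12.0 ± 2.44 to 2.88 ± 0.498 CPM (SD, n = 4 and 3; edgeR adjusted p = 0.000748). Its 3 mutant values, 2.75, 2.46 and 3.43 CPM, lay below the lowest sibling at 9.69 CPM. Thus 2 of 3 tested BCL11 rows fell, beside 7.69% of all tested genes, and bcl11ba had 2.06 and 0.671 CPM on average (edgeR adjusted p = 0.157).

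In the GATA family GATA3, which acts in T cells and neural tissue, rose 1.95-fold (edgeR adjusted p = 0.0292). It was 1 of 7 tested rows, where 8.87% of all tested genes rose. Its groups overlapped at 16.9 to 31.1 and 27.6 to 58.1 CPM, and it did not pass without sibling replicate 1, 3 or 4 or mutant replicate 2 or 4 (edgeR adjusted p of 0.0577 to 0.149). GATA2, a progenitor factor that GATA1 replaces on DNA as red cells mature, had 20.1 ± 3.77 and 23.6 ± 1.82 CPM (SD, n = 4 and 3; edgeR adjusted p = 0.526). The remaining GFI1 relative, the row GFI1 (ENSDARG00000044457), had 1.93 and 4.13 CPM on average (edgeR adjusted p = 0.133). In the NFE2 family NFE2L1 rose 2.25-fold from 5.68 CPM (edgeR adjusted p = 0.0361) and nfe2l3, named after its value was seen, fell, among 6 tested rows. Over all tested genes 8.87% rose and 7.69% fell. NFE2L1 did not pass without sibling replicate 1, 4 or 5 or mutant replicate 3 (edgeR adjusted p of 0.0865, 0.0885, 0.0795 and 0.299) or with limma-voom (0.0557). No row of the family fell without sibling replicate 1 or mutant replicate 2.

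**Figure D5:**
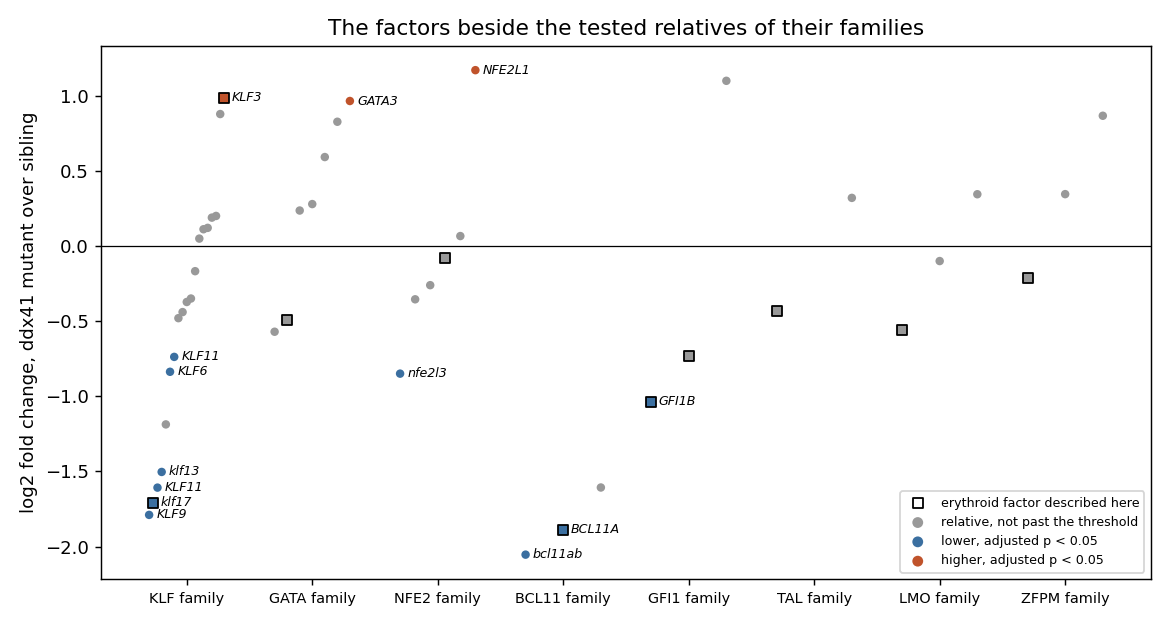
Log2 fold change of ddx41 mutants over siblings for the tested rows of each family. Squares are the 10 genes described here, circles their relatives, and colour marks an edgeR adjusted p under 0.05 (blue, lower; orange, higher; grey, not passed). In the KLF family 6 rows are blue and KLF3 alone is orange, and in the BCL11 family both BCL11A and bcl11ab are blue.

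Of 13 tested rows of partners of the GATA1 and TAL1 complex, 1 fell and 0 rose, and their median log2 fold change was -0.36. With 7.69% of all tested genes lower, a list of this size would hold about that number. The gene that fell, tcf3a, encodes an E protein that pairs with TAL1. It went from 30.2 ± 5.71 to 14.96 ± 3.76 CPM (SD, n = 4 and 3), 2.02-fold lower with separate groups (edgeR adjusted p = 0.0124). It did not pass without mutant replicate 2 (edgeR adjusted p = 0.0692), when no partner fell, and 3 partners fell without mutant replicate 3. Of the other E protein rows, tcf3b had 248 ± 31.9 and 182 ± 28.6 CPM (edgeR adjusted p = 0.132). TCF12 lay the other way, at 20.25 ± 7.07 and 23.8 ± 3.54 CPM (edgeR adjusted p = 0.607). The rows of LDB1, whose product holds the complex at distant sites, had log2 fold changes of -0.53 (ENSDARG00000103158) and -0.45 (ENSDARG00000010137), with edgeR adjusted p values of 0.0819 and 0.217.

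Of 24 tested rows of corepressors that work with GFI1B, FOG1 or BCL11A, 2 fell, a share close to the 7.69% of all tested genes that fell, and 0 rose, and their median log2 fold change was -0.28. The gene ctbp2a, whose product binds FOG1 and KLF3, fell 2.45-fold, from 33.8 ± 1.64 to 13.8 ± 2.96 CPM (SD, n = 4 and 3; edgeR adjusted p = 0.00112). GSE1, a component of KDM1A complexes, fell 1.66-fold (edgeR adjusted p = 0.0300), and it lost the call without any 1 library other than mutant replicate 3 (edgeR adjusted p of 0.0523 to 0.0949). Leaving out any 1 sibling or mutant replicate 2 left 1 corepressor lower, leaving out mutant replicate 4 gave 4, and DESeq2 gave 5. KDM1A itself had 85.1 ± 4.38 CPM in siblings and 82.9 ± 8.54 CPM in mutants (edgeR adjusted p = 0.909), and RCOR1, another corepressor of the list, had a log2 fold change of -0.02 (edgeR adjusted p = 0.959).

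Among 8 tested rows of NFE2 partners and competitors 2 rose and 0 fell, where 8.87% of all tested genes rose, at a median log2 fold change of -0.32. The competitor gene bach1a rose 2.11-fold, with 15.2, 22.4, 30.5 and 23.0 CPM in siblings and 43.8, 57.1 and 43.4 CPM in mutants (edgeR adjusted p = 0.00594). The small MAF gene maff rose 1.79-fold, from 20.5 ± 2.64 to 36.7 ± 3.59 CPM (SD, n = 4 and 3; edgeR adjusted p = 0.0109). The second BACH1 row (ENSDARG00000002196) had 115 ± 10.3 and 79.2 ± 14.8 CPM (edgeR adjusted p = 0.0698). Both bach1a and maff passed without any 1 library, and 1 row of the list fell without mutant replicate 3 or 4, with upper-quartile scaling or with DESeq2.

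Of 23 other erythroid regulators 2 rose and 5 fell, beside 8.87% and 7.69% of all tested genes, and the median log2 fold change was -0.04. The forkhead genes foxo3a and foxo3b, which act in late red cell maturation in mice, fell from means of 75.2 and 239.8 CPM to 28.3 and 109 CPM (edgeR adjusted p = 0.00119 and 0.00417). Their mutant levels were 23.0 to 36.2 CPM and 92.5 to 137 CPM, below the lowest siblings at 56.4 and 185.6 CPM. The Ikaros family gene IKZF5 rose 3.16-fold (edgeR adjusted p = 0.00161), and e2f2, a cell cycle factor, rose 1.97-fold (edgeR adjusted p = 0.0157). The latter did not pass without sibling replicate 1 or mutant replicate 3 (edgeR adjusted p = 0.0511 and 0.117), when 1 row rose, and 3 rose without mutant replicate 4.

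Of 15 tested transcription factors of early blood progenitors, 2 of them also counted as GATA relatives, 2 rose, where 8.87% of all tested genes did, and 0 fell, at a median log2 fold change of -0.14. SPI1 (ENSDARG00000000767), the myeloid factor that binds GATA1, rose 1.77-fold, with 47.8 to 63.0 CPM in siblings and 78.6 to 134 CPM in mutants (edgeR adjusted p = 0.0161). It did not pass without sibling replicate 3 or 5 or mutant replicate 4 (edgeR adjusted p = 0.0502, 0.0516 and 0.0735). The row spi1a lay the other way, at 39.8 ± 6.52 and 26.9 ± 4.18 CPM (SD, n = 4 and 3). All its mutants were below all siblings, and it did not pass (edgeR adjusted p = 0.0832). The other gene that rose was hhex, at 16.7, 5.07 and 6.66 CPM in mutants and 3.84 CPM at most in siblings (edgeR adjusted p = 0.00847, and 0.106 without mutant replicate 2). Only 1 of the list rose when sibling replicate 5 or mutant replicate 2 or 4 was left out, and 3 rose without mutant replicate 3. Without mutant replicate 4, 2 fell, and 1 fell with DESeq2.

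Of 36 tested rows matched by symbol to a list of red cell targets of these factors, 4 rose and 5 fell, where 8.87% of all tested genes rose and 7.69% fell. Their median log2 fold change was -0.09, against 0.04 in the whole tested table. The carbonic anhydrase gene ca2 rose 3.93-fold, from 29.4 ± 0.768 to 115.8 ± 54.3 CPM (SD, n = 4 and 3; edgeR adjusted p = 0.00015). SLC4A1 (ENSDARG00000024560), the lesser of the 2 anion exchanger rows, rose as well, at 47.3 to 58.4 CPM in siblings and 109.8 to 239 CPM in mutants. The far more abundant SLC4A1 row (ENSDARG00000012881) did not rise. It had 10997 CPM in siblings and 7970 CPM in mutants on average, with all mutants below all siblings (edgeR adjusted p = 0.203). The more abundant carbonic anhydrase row, cahz, had 2349 and 1710 CPM on average, also with all mutants below all siblings (edgeR adjusted p = 0.202). Both SLC4A1 rows were taken for the listed slc4a1a, and whether every listed row is a red cell target was not tested. The tropomodulin gene TMOD4 fell 2.29-fold (edgeR adjusted p = 0.00232). The alpha globin gene hbae1.3 fell too, with 3081 to 7026 CPM in mutants and 14520 to 27905 CPM in siblings. Of the other listed globin rows, hbae3 fell and hbae5 rose (edgeR adjusted p = 0.0353 and 0.0317). The rows hbae1.1 and hbbe3 did not pass (edgeR adjusted p = 0.0751 and 0.774). The globin row HBE1 (ENSDARG00000045143), which was not on the list, fell at a log2 fold change of -1.835 (edgeR adjusted p = 0.000209). The haem synthesis gene alas2 had 2868 CPM in siblings and 2758 CPM in mutants on average (edgeR adjusted p = 0.908), and EPOR, the erythropoietin receptor gene, had 564 and 591 CPM (0.861). Without mutant replicate 4, 8 rose. Only 3 fell when sibling replicate 1, 3 or 4 was left out, and 8 fell with limma-voom.

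Several of these factors, GFI1B, NFE2, gata1a and ZFPM1 among them, also act in thrombocytes, which gata1-positive cells can include. Of 9 tested rows of thrombocyte markers 2 fell and 0 rose, beside 7.69% and 8.87% of all tested genes. Their sum over 12 rows was 340 to 417 CPM in siblings and 194 to 309 CPM in mutants. The surface receptor gene gp9 had 122.7 CPM in siblings and 39.1 CPM in mutants on average, while GP1BB, the most abundant, had 165.5 and 143.2 CPM (edgeR adjusted p = 0.576). The defining integrin gene itga2b had 12 counts over all 7 libraries, and 1 of 2 THBS1 rows (ENSDARG00000103775) had 0. The part of thrombocytes in the fall of GFI1B was not tested.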

How the data were processed

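The authors deposited 1 table of unnormalised counts, with Ensembl gene IDs in lines and the 7 libraries in columns. Per the submitters' processing notes, which give no roles or order, the tools were STAR 2.4.2a, Cufflinks 2.2.1, Trim Galore, Picard and DESeq2, on the build GRCz10. How reads were assigned to genes, and whether strand was used, is not stated in those notes or the labels, so reads of overlapping or antisense genes cannot be separated. Columns were matched by title, 0 columns belonged to other samples, and 26269 of 32105 IDs had a symbol.

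The comparison used edgeR 4.0.16 in R 4.3.3: filterByExpr (minimum count 10, total 15; 18565 genes), TMM scaling, and the quasi-likelihood F-test of mutants against siblings with Benjamini-Hochberg adjustment over all tested genes. The SE is the absolute log2 fold change divided by the square root of F, and 95% intervals use it. The common biological coefficient of variation was 0.377. No library was a duplicate of another in its group (chi-square per degree of freedom 16.0 to 57.9). Pairs of a sibling and a mutant were not compared in this way. The steps were tested on simulated data.

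The members and lists were chosen with earlier results of these data known. Of 166 other listed symbols, 151 matched a row, and of 77 marker symbols, 67. The context genes named were the 2 per direction with the smallest p in each list, at a mean of at least 5 CPM; other context genes were named after their values were seen. The nearest profiles were the 3 with the smallest root mean square difference of centred log2 CPM (prior count 1). Alternatives were other scalings and filters, robust dispersion, DESeq2 1.42.0, limma-voom (limma 3.58.1), each library left out, and a replicate block.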

Additional observations from a re-analysis of the deposited data

Results flagged for a closer look

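In 5 of 38 sets of the 4 sibling values, 1 library stood apart from the other 3 by Dixon's test at the 95% level, which chance gives in about 1 set in 20. GFI1B was 574.9 CPM in sibling replicate 4 and 446.1 to 457.9 CPM in the others. LMO2 was at 39.67% of gata1a in sibling replicate 5 and 24.18% to 26.35% in the others. Sibling replicate 5 was also high for GATA3, at 31.12 CPM against 16.87 to 18.90 CPM, and for maff, at 24.41 CPM against 18.62 to 19.53 CPM. NFE2L1 was 7.518 CPM in sibling replicate 3 and 4.847 to 5.292 CPM in the others. Groups of 3, such as the mutants, are too small for this test.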

How the results depend on the processing

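Of the 10 genes, klf17, BCL11A and GFI1B passed the test under all 8 other scalings, filters and tests and without any 1 library; KLF3 passed under those 8 but not without ddx41 mutant replicate 2 (edgeR adjusted p = 0.0655). Over libraries left out, the number of the 10 genes that fell was 3 to 4 and that rose 0 to 1, while 874 to 1487 genes of the whole table fell and 1014 to 1471 rose, with the lowest numbers without ddx41 mutant replicate 2. The log2 fold change of NFE2 ranged from -0.27 to 0.14 over libraries left out; it turned positive when sibling replicate 4 was absent (0.03) and when ddx41 mutant replicate 4 was (0.14). No other fold change of the 10 genes or of the context genes named by rule changed sign under these alternatives. For 4 libraries with the replicate number (3 or 4) as a block, 633 genes rose and 431 fell, and for all 7 libraries 592 rose and 431 fell; in both, 0 of the 10 genes rose and 2 fell, klf17 and BCL11A. With the block GFI1B had a log2 fold change of -1.31 (edgeR adjusted p = 0.0842 or 0.0890) and KLF3 of 0.86 (0.224 or 0.239), beside -1.04 and 0.99 without it. Of the context genes named by rule, tcf3a, GSE1, NFE2L1, bach1a, maff, e2f2, foxo3b, hhex, SPI1 and TMOD4 also lost their calls under both blocks, with directions kept (edgeR adjusted p of 0.0687 for TMOD4 to 0.350 for GSE1). Only 2 numbers are shared. The deviations of same-numbered libraries from their group means correlated at -0.0158 and -0.151 across genes, and those of differently numbered libraries at -0.135 to 0.22. With 2 pairs, these values cannot show whether the numbers pair the libraries. The block leaves fewer libraries for the comparison. Summing IDs that share a symbol was not run, since 0 of the 10 symbols were shared by another ID. The sparse gfi1aa, with 13 to 50 counts, is limited by depth.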

Other observations

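Ratios between a factor and its relative or competitor, chosen after the values were seen, differed in how they split the libraries. The ratio of NFE2 to bach1a CPM was 3.58, 1.997, 2.12 and 1.90 in sibling replicates 1, 3, 4 and 5 and 1.25, 1.04 and 0.765 in ddx41 mutant replicates 2, 3 and 4, so the groups did not overlap, although NFE2 itself did. The ratio of BCL11A to bcl11ab averaged 3.20 ± 0.778 over the 4 siblings and 3.55 ± 1.74 over the 3 mutants (SD), with overlapping values from 1.91 to 5.38 in the mutants alone.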
